A study of Arabidopsis thaliana with 21 samples.

Results

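The genes described here are the 34 nuclear genes of Arabidopsis thaliana that encode subunits of photosystem I (13 genes), subunits and assembly proteins of photosystem II (12), the Rieske protein, plastocyanin, ferredoxin and ferredoxin-NADP reductase (6 carriers), and the plastid ATP synthase (3). The 13 include PSAP, counted by its symbol. It is also known as CURT1B, a protein of thylakoid membrane curvature, and is not a subunit in the strict sense. They were chosen by function, as the nuclear members of the electron transport chain without the antenna and Rubisco genes, out of 32833 genes in the count table. All 34 were among the 20234 genes that passed the low-count filter.

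By symbol and locus, the photosystem I genes were PSAD1 (AT4G02770), PSAD2 (AT1G03130), PSAE1 (AT4G28750), PSAE2 (AT2G20260), PSAF (AT1G31330), PSAG (AT1G55670), PSAH1 (AT3G16140), PSAH2 (AT1G52230), PSAK (AT1G30380), PSAL (AT4G12800), PSAN (AT5G64040), PSAO (AT1G08380) and PSAP (AT2G46820). Those of photosystem II were PSBO1 (AT5G66570), PSBO2 (AT3G50820), PSBP1 (AT1G06680), PSBQ1 (AT4G21280), PSBQ2 (AT4G05180), PSBR (AT1G79040), PSBW (AT2G30570), PSBX (AT2G06520), PSBY (AT1G67740), PSBTN (AT3G21055), PSB27 (AT1G03600) and PSB28 (AT4G28660). The carriers were PETC (AT4G03280), PETE1 (AT1G76100), PETE2 (AT1G20340), FD2 (AT1G60950), FNR1 (AT5G66190) and FNR2 (AT1G20020), and the ATP synthase genes ATPC1 (AT4G04640), ATPD (AT4G09650) and ATPG (AT4G32260). Among genes called over hy5 in the fit of all libraries, those with the largest changes are PSAN at chr5:25628521-25629708, PSAD2 at chr1:753307-754262, ATPD at chr4:6100714-6101864, PSAH2 at chr1:19454798-19455668, PSBQ1 at chr4:11334352-11335815, PSAP at chr2:19243348-19245141, FD2 at chr1:22444307-22445291 and PSB27 at chr1:898480-899794 (TAIR10.1 coordinates, which are those of the deposited table).

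In the thylakoid membrane, photosystem II takes electrons from water and passes them through the cytochrome b6f complex and plastocyanin to photosystem I, from which ferredoxin and its reductase deliver them to NADP. The proton gradient built on the way drives the ATP synthase. The reaction-centre cores are encoded in the plastid, while the genes described here supply most peripheral and soluble parts from the nucleus, and their transcripts are known to be abundant in green seedlings and to respond to light. HY5 is a bZIP transcription factor of light signalling that is known to bind G-box sequences.

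The study measured mRNA by poly(A) RNA-seq in whole 7-day-old seedlings, with 7 groups of 3 libraries. High light was 500 µmol m-2 s-1, given over 2 h to a mutant named hy5 (its allele is not given in the sources used here) and to the wild type Col-0 (WT). The other groups were kept at the 100 µmol m-2 s-1 in which the seedlings had grown, called growth light here. They were the line 35S:HY5K87Q-GFP in hy5-1, the line 35S:HY5K87R-GFP in hy5-2, the line 35S:HY5K87K-GFP in hy5-1, the hy5 mutant and WT. K87Q and K87R replace lysine 87 of HY5 with glutamine (Q) and arginine (R), and K87K keeps it. All the transgenes are driven by the constitutive 35S promoter, were measured in growth light alone, and were compared with the one hy5 group, so the hy5 allele and the transgene of K87R cannot be told apart in a comparison with K87Q or K87K. The labels call the replicates of each group biological, without saying whether they were separate plates or sowings, so p-values describe the spread between these libraries.

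The libraries held 7283290 (K87R replicate 1) to 22101539 (K87Q replicate 1) counts assigned to genes. HY5 itself had 0.330, 0 and 0.496 CPM (counts of a gene relative to the library total, scaled with TMM factors) in hy5 in high light and 106, 51.9 and 41.9 CPM in WT in high light. In growth light it had 263, 255 and 227 CPM in K87Q, 409, 326 and 296 CPM in K87R and 285, 212 and 356 CPM in K87K, against 0.0639, 0.354 and 1.24 CPM in hy5 and 9.86, 7.01 and 9.06 CPM in WT, as the labels have it. All 3 transgenic lines in growth light had far more HY5 transcript than WT did.

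Both high-light replicate 3 libraries stood apart from the other 19. In replicate 3 against the mean of replicates 1 and 2, the 16 genes with a coding GC content of at least 50% were lower by a median of 5.79 (hy5) and 4.75 (WT) on the log2 scale, and the 18 others by 1.49 (hy5) and 0.785 (WT). PSAE2 is an example, with 538, 566 and 0.496 CPM in hy5 in high light and 705, 531 and 44.7 CPM in WT in high light, the last value of each being replicate 3. Others held their level, such as PSAD1 with 2367, 1122 and 1781 CPM in hy5 and 2618, 1598 and 1613 CPM in WT in high light. Over 13066 expressed genes, Spearman's rho between coding GC and the replicate 3 difference was -0.77 in hy5 and -0.594 in WT in high light, as a description of 2 libraries with no test. In the groups of growth light rho for the replicate 3 difference lay between -0.102 and 0.223. Between groups of growth light, rho of coding GC with the log2 fold change ran from -0.309 (K87K over hy5) to 0.447 (K87Q over K87R). It was 0.383 in hy5 over WT, -0.293 in K87R over hy5 and -0.0998 in K87Q over hy5. The part of coding GC in the growth-light comparisons was not tested. Plastid genes took 7.29% of the counts in hy5 replicate 3 and 6.52% in WT replicate 3 in high light, and 4.15% and 3.91% in the growth-light replicate 3 libraries of hy5 and K87K. Their part in the results was not tested. For every comparison with high light, the counts of called members are therefore given with and without both libraries. Copy ratios and the counts of genes separated in every library include both.

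**Figure D1:**
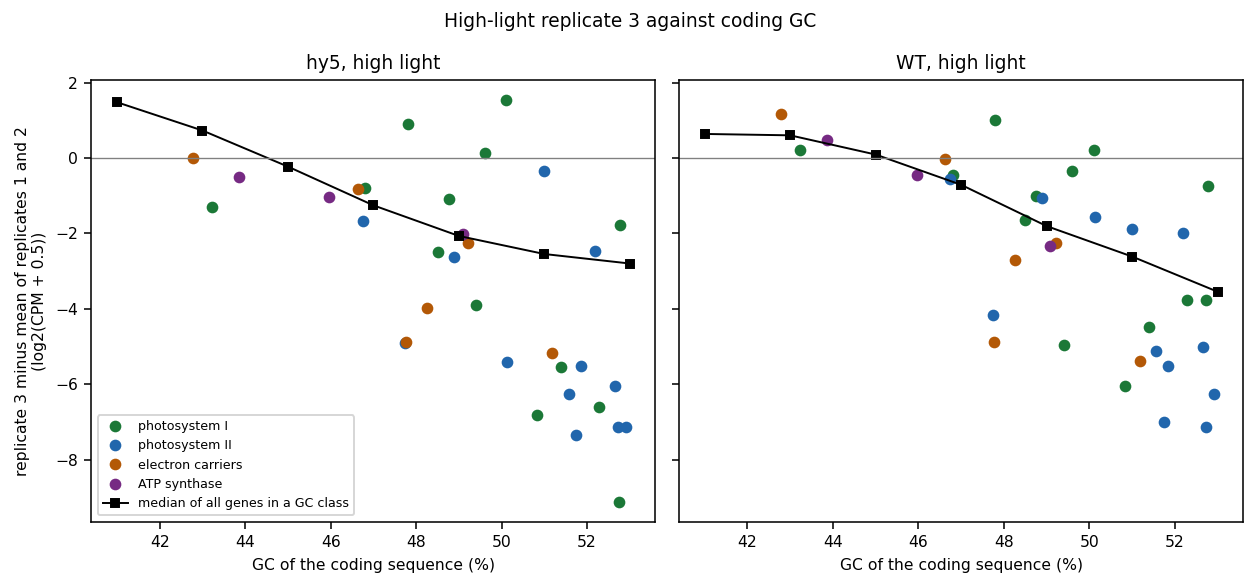
Difference of high-light replicate 3 from the mean of replicates 1 and 2 (y axis, log2(CPM + 0.5)) against the GC content of the coding sequence (x axis, percent), for hy5 (left) and WT (right). Points are the 34 genes coloured by complex, and black squares are medians of all expressed genes in GC classes. The line falls with GC in both genotypes, and members above 50% GC had medians of -5.79 in hy5 and -4.75 in WT, while PSAD2 and PSAG lie above 0 in both.

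Per kilobase of gene, PSBR, a lumenal photosystem II protein that stabilises PSBP, had the highest mean in all 5 growth-light groups. Its level was 7369.6 ± 1466 CPM per kb in K87Q, 4803 ± 710.1 in K87R, 6962 ± 957 in K87K, 10644 ± 557 in hy5 and 8253 ± 1026 in WT (SD, n = 3 each). PSBO1, the main manganese-stabilising protein of water oxidation, came next in each, with 3288 ± 311 in K87Q, 2380.2 ± 198 in K87R, 4894 ± 325 in K87K, 6882 ± 234 in hy5 and 6201 ± 224 CPM per kb in WT. PSBR and PSBO1 were apart by more than their spread in each group, whereas PSBO1 and PSAL, next in line in hy5 and WT, were not (6869 ± 444 CPM per kb for PSAL in hy5 and 6169.5 ± 646 in WT).

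FNR2, the less abundant leaf isoform of ferredoxin-NADP reductase, had the lowest level in K87K, hy5 and WT (99.2 ± 17.5, 109 ± 3.58 and 144 ± 13.8 CPM per kb). In K87Q and K87R the lowest was PSB28, a photosystem II assembly protein, with 76.8 ± 6.54 CPM per kb in K87Q and 49.6 ± 11.1 in K87R. PETE1, the minor plastocyanin, was also near the bottom of each group, with 86.0 ± 9.91 in K87Q, 69.4 ± 9.14 in K87R, 158 ± 12.3 in K87K, 304 ± 4.04 in hy5 and 307 ± 13.7 CPM per kb in WT.

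**Figure D2:**
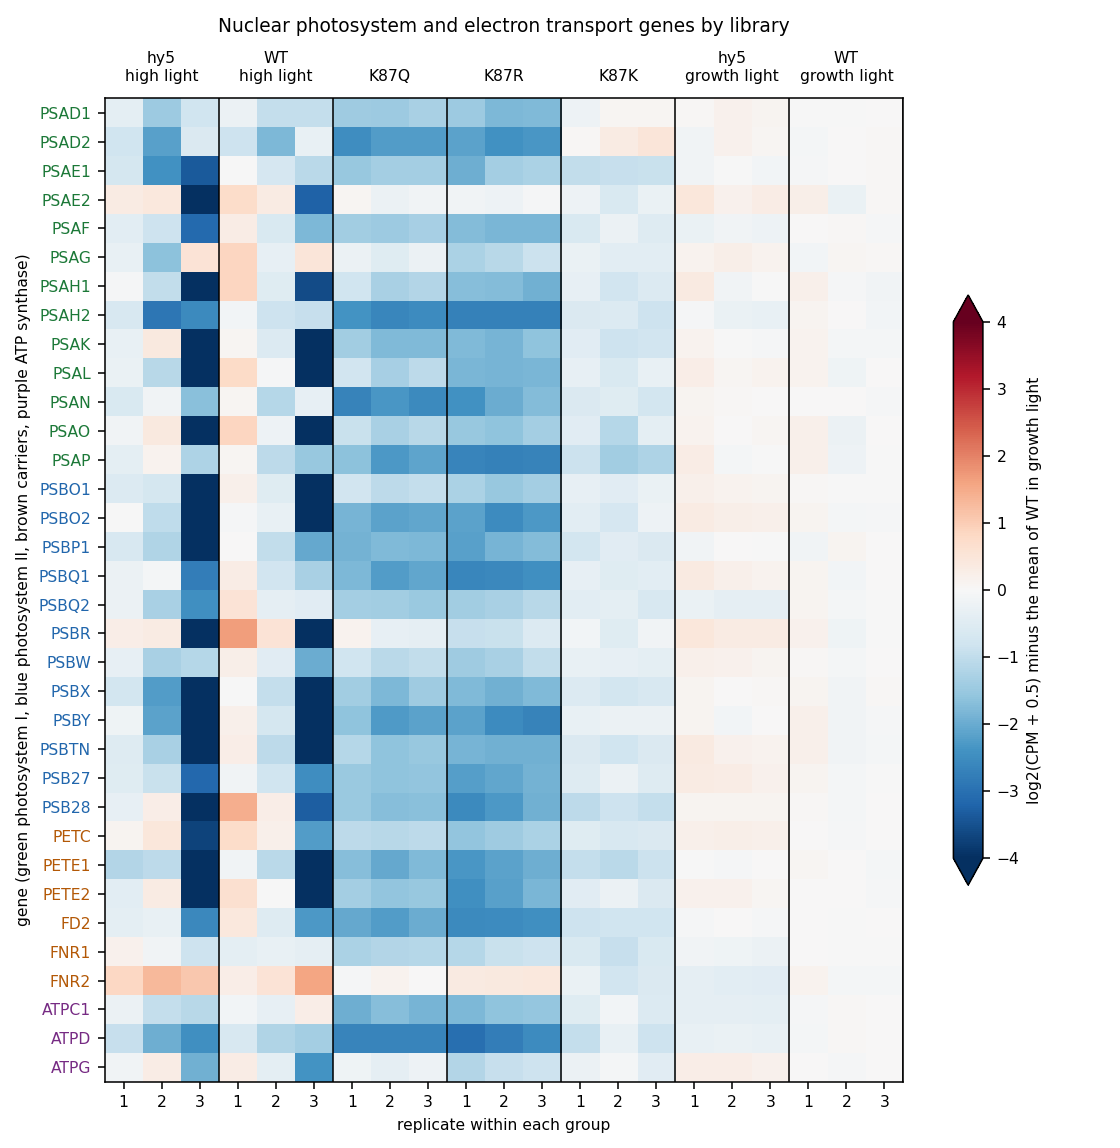
Level of each of the 34 genes (rows, grouped by complex) in each of the 21 libraries (columns, replicates 1 to 3 of each group), as log2(CPM + 0.5) minus the mean of WT in growth light. Blue is lower and red higher, with values past 4 in either direction shown in the end colour. K87Q and K87R are blue in nearly all rows, with FNR2 near or above the WT level, and the darkest cells are high-light replicate 3.

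In growth light the electron transport genes were lower in both substituted lines than in the hy5 mutant, through all 4 complexes. The 34 genes together took 4.89 to 5.07% of a library's counts in K87Q and 4.39 to 4.85% in K87R, against 6.55 to 7.04% in K87K, 7.68 to 8.17% in hy5 and 8.45 to 8.76% in WT. In K87Q, 33 of the 34 genes lay below hy5 in every library, as did 27.8% of all genes tested, and in K87R 33 of 34 did, against 29.6% of all genes. The remaining gene was FNR2 in both lines, which lay above hy5 in every library, as did 31.2% of all genes in K87Q and 33.7% in K87R. The median log2 fold change over hy5 was -1.54 in K87Q and -1.87 in K87R, beside 0.10 over all genes in both. The background differed with coding GC. At a coding GC of 50 to 52%, the medians of expressed genes were -0.19 in K87Q and -0.65 in K87R, against -1.63 and -1.87 for members. At 52% and over they were -0.16 and -0.77, against -1.15 and -1.53 for members. The part of coding GC in these differences was not tested. In bulk seedlings, fewer green cells and less of these transcripts per cell cannot be told apart.

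Some root markers were also called lower in both lines. Of 12 root markers, 11 were tested, and 4 were called lower in K87Q (9.38% of all genes) and 5 in K87R (11.3%) over hy5, with none higher (7.35% and 11.1%). LRX1 and COBL9, which act in root hair walls, were among them (-4.88 ± 0.64 and -3.34 ± 0.71 in K87Q, adjusted p = 3.22e-05 and 0.0031, and -5.20 ± 0.65 and -3.56 ± 0.73 in K87R, adjusted p = 1.76e-05 and 0.00178). The summed level of the list, most of it BGLU23, was 980.3 to 1229 CPM in K87Q and 1336 to 1493 CPM in K87R, against 2523 to 3058 CPM in K87K, 2326 to 2337 CPM in hy5 and 2524 to 2993 CPM in WT. In high light it was 277 to 862 CPM in hy5 and 377 to 565 CPM in WT. NRT2.1 was at or near 0 in all libraries, and RHD6, RSL4 and WOX5 were near 0. The tested markers did not all go down. Over hy5, 1 had a positive log2 fold change in K87Q (3.08) and 2 in K87R (2.76 at most), none called. The part of tissue makeup in the results was not tested.

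With the spread estimated over all 21 libraries, edgeR's quasi-likelihood test with Benjamini-Hochberg adjustment called 11 genes lower and none higher in K87Q over hy5, where it called 16.7% of all genes, 9.38% lower and 7.35% higher. In K87R over hy5 it called 14 lower and none higher, beside 22.4% of all genes, 11.3% lower and 11.1% higher. The genes it did not call had larger standard errors, with a median of 0.88 in K87Q and 0.93 in K87R, against 0.43 and 0.46 for those called. The uncalled genes also had the larger drop in hy5 high-light replicate 3 against replicates 1 and 2 (median -5.18 for the K87Q comparison and -5.47 for K87R, against -1.04 and -1.07). Fitted on the libraries compared alone, the test called all 34 genes in both lines, beside 55.1% of all genes in K87Q and 61.2% in K87R. Fitted on the 15 growth-light libraries, a choice made after seeing the data, it called 33 lower and FNR2 higher in each, where 25.3% (K87Q) and 27.6% (K87R) of all genes were lower and 27.8% and 29.8% higher. The medians were -1.58 in K87Q and -1.90 in K87R with the libraries compared alone, and -1.54 and -1.87 with the growth-light libraries.

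**Figure D3:**
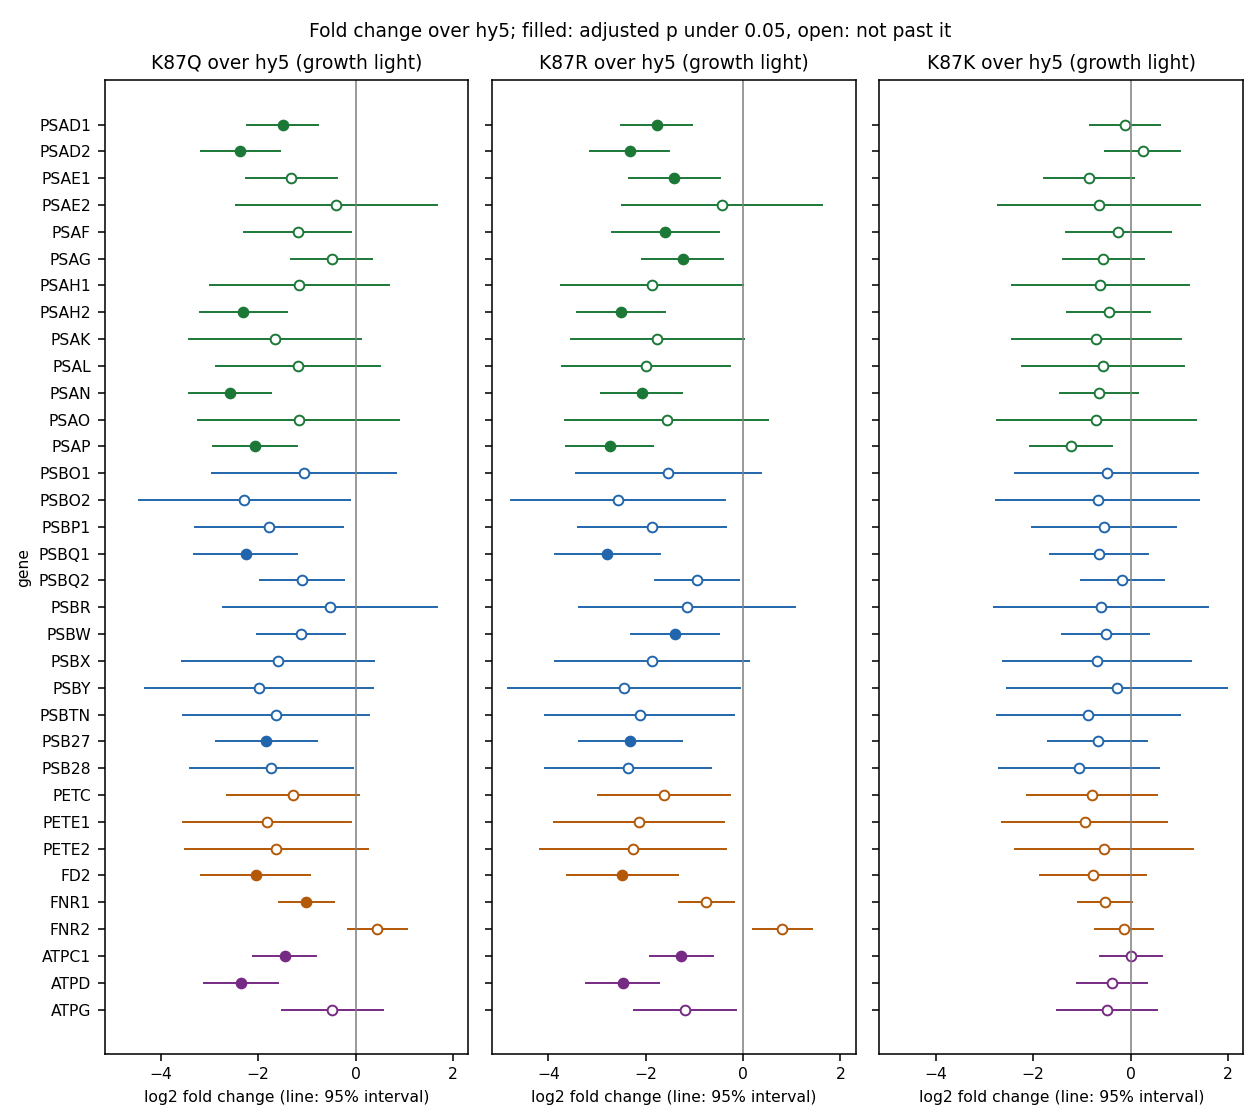
Log2 fold change over hy5 in growth light (x axis) of each gene (y axis) in K87Q, K87R and K87K, with lines for 95% intervals from the fit of all 21 libraries. Filled points passed an adjusted p of 0.05 (11 in K87Q, 14 in K87R, none in K87K), and colours are the complexes. All points but FNR2 lie left of 0 in K87Q and K87R. Without the TMM factors PSAE2, PSAG, PSBR and ATPG lie right of 0 in K87Q, and PSAE2, PSBQ2 and FNR1 in K87R.

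The scale matters for the size of these differences. TMM factors were 1.15 to 1.34 in K87Q and up to 1.57 in K87R, against 0.784 to 0.795 in hy5, and the 20 most abundant genes took 13.0 to 16.0% and 10.6 to 11.4% of counts in the lines, against 22.4 to 23.2% in hy5. With library size alone, the median of all genes over hy5 was 0.76 in K87Q and 1.05 in K87R, and the median of the 34 genes was -0.89 and -0.91. In K87Q and K87R over hy5, leaving out the factors moves all genes by about the same amount. There it changes signs but not the distance of the 34 genes from all genes. On that scale PSAE2, PSAG, PSBR and ATPG had positive fold changes in K87Q, and PSAE2, PSBQ2 and FNR1 in K87R, none past the threshold, while FNR2 was called higher in both (1.11 in K87Q and 1.76 in K87R).

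Among photosystem I genes, 5 of 13 were called lower in K87Q (9.38% of all genes) and 8 of 13 in K87R (11.3%). PSAN, a lumenal subunit on the plastocyanin side, had 409, 514 and 441 CPM in K87Q and 481, 657 and 781 CPM in K87R, against 2807, 2689.6 and 2647 CPM in hy5. Its log2 fold change over hy5 was -2.58 ± 0.43 in K87Q (SE, adjusted p = 0.000363) and -2.09 ± 0.42 in K87R (adjusted p = 0.00159). Neither line overlapped hy5, and the K87Q libraries reached 514 CPM at most.

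PSAD2 encodes one of a pair of stromal subunits that dock ferredoxin. It had 207, 246 and 247 CPM in K87Q and 267, 218 and 231 CPM in K87R, against 1064, 1313 and 1225 CPM in hy5, a log2 fold change of -2.37 ± 0.41 (adjusted p = 0.00059) and -2.33 ± 0.41 (adjusted p = 0.000525). Every K87Q and K87R library was far below the lowest hy5 library. Its partner PSAD1 had 1159, 1136 and 1246 CPM in K87Q and 1120.2, 898 and 904 CPM in K87R, against 3164, 3498 and 3339 CPM in hy5 (0.354-fold and 0.292-fold the hy5 level, adjusted p = 0.00905 and 0.00222).

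PSAH2, a subunit at the site where mobile antenna docks, had 247, 216 and 228 CPM in K87Q and 198, 201 and 199 CPM in K87R, against 1257, 1088 and 1068 CPM in hy5 (log2 -2.31 ± 0.46, adjusted p = 0.00169, and -2.51 ± 0.46, adjusted p = 0.000715). PSAP, also known as CURT1B, a protein of thylakoid membrane curvature, had 736, 466 and 538 CPM in K87Q and 373, 356 and 364 CPM in K87R, against 2823, 2190.3 and 2296 CPM in hy5 (log2 -2.07 ± 0.44, adjusted p = 0.00302, and -2.74 ± 0.45, adjusted p = 0.000276). For both genes the lines and hy5 were well separated.

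PSAE1, PSAF and PSAG passed the threshold in K87R alone, with log2 fold changes of -1.42 ± 0.48, -1.60 ± 0.56 and -1.24 ± 0.43 (adjusted p = 0.0392, 0.0469 and 0.0432). Their values in K87Q were -1.32 ± 0.48, -1.19 ± 0.56 and -0.49 ± 0.42 (adjusted p = 0.0642, 0.152 and 0.47). PSAE1 lies on the stromal side with PSAD, PSAF forms the plastocyanin docking site and PSAG is a membrane subunit next to the antenna. The 5 others, PSAE2, PSAH1, PSAK, PSAL and PSAO, ranged from -1.65 (PSAK) to -0.40 (PSAE2) in K87Q with no call, and in K87R PSAL was lowest (0.250-fold the hy5 level, adjusted p = 0.11) and PSAE2 highest (-0.43). PSAE2 had the value nearest 0 of the 13 in both lines, with 453, 359 and 387 CPM in K87Q and 388, 370.1 and 411 CPM in K87R, against 581, 475 and 521 CPM in hy5.

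Of the 12 photosystem II genes, 2 were called lower in K87Q (9.38% of all genes) and 3 in K87R (11.3%). PSBQ1, one of a pair of extrinsic proteins of the oxygen-evolving complex, had 892, 660.3 and 733 CPM in K87Q and 501, 516 and 563 CPM in K87R, against 3958, 3531 and 3436 CPM in hy5. Its log2 fold change was -2.26 ± 0.54 in K87Q (adjusted p = 0.00702) and -2.79 ± 0.55 in K87R (adjusted p = 0.00132), with the lowest value of any member in K87R. PSB27, a lumenal protein of photosystem II assembly and repair, had 355, 328 and 336 CPM in K87Q and 219, 240.2 and 269.8 CPM in K87R, against 1263, 1236 and 1136 CPM in hy5 (log2 -1.83 ± 0.53, adjusted p = 0.022, and -2.32 ± 0.54, adjusted p = 0.0045). Lines and hy5 were again apart.

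PSBW, a small protein of photosystem II supercomplexes, was called in K87R alone (-1.40 ± 0.46, adjusted p = 0.0358), beside -1.12 ± 0.46 in K87Q (adjusted p = 0.103). The other 9 genes ranged from -2.28 (PSBO2) to -0.53 (PSBR) in K87Q and from -2.57 (PSBO2) to -0.95 (PSBQ2) in K87R. PSBO2, the second manganese-stabilising protein, had 588, 484 and 501 CPM in K87Q and 483, 372 and 433 CPM in K87R, against 2662, 2520.0 and 2479.6 CPM in hy5, with no overlap. Its standard error was 1.11 in K87Q and 1.12 in K87R in the fit of all libraries (adjusted p = 0.168 and 0.107) and 0.12 in both in the growth-light fit (adjusted p = 1.87e-17 and 8.98e-19). PSBP1, the third extrinsic protein, PSBX, PSBY and PSBTN, all small subunits, and PSB28 were lower than hy5 in every library of both lines. PSBR had 7104, 5172 and 5058 CPM in K87Q and 3422, 3466 and 4408 CPM in K87R, against 8849, 8100.0 and 8085 CPM in hy5, so that its lowest values were in K87R.

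The 6 carriers split. FD2, the main leaf ferredoxin, had 845, 738 and 886 CPM in K87Q and 597, 602 and 637 CPM in K87R, against 3392, 3482 and 3346 CPM in hy5 (log2 -2.05 ± 0.57, adjusted p = 0.018, and -2.48 ± 0.58, adjusted p = 0.00472). FNR1, the main leaf ferredoxin-NADP reductase, had 303, 329.9 and 330.4 CPM in K87Q and 337, 396 and 419 CPM in K87R, against 662, 650.3 and 631 CPM in hy5, and was called in K87Q alone (-1.01 ± 0.29, adjusted p = 0.0198) beside -0.75 ± 0.29 in K87R (adjusted p = 0.0634). PETC, the Rieske protein, and the plastocyanins PETE1 and PETE2 had log2 fold changes of -1.29, -1.82 and -1.63 in K87Q and -1.63, -2.13 and -2.26 in K87R, none past the threshold.

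FNR2 went the other way. It had 254, 289 and 269 CPM in K87Q and 338, 348 and 354 CPM in K87R, against 217, 154 and 175 CPM in K87K, 206, 198 and 193 CPM in hy5 and 294, 248 and 251 CPM in WT. The K87R libraries were above those of all other growth-light groups, and K87Q overlapped WT. Over hy5 its log2 fold change was 0.44 ± 0.31 in K87Q (adjusted p = 0.352) and 0.80 ± 0.31 in K87R (adjusted p = 0.0693), neither past the threshold, while in the growth-light fit the adjusted p was 0.00125 and 2.75e-07. Over K87K it rose in K87R (0.93 ± 0.31, adjusted p = 0.0482).

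Of the ATP synthase genes, ATPC1 (subunit gamma) and ATPD (subunit delta) were called lower in both lines. ATPD had 245, 245 and 245 CPM in K87Q and 188, 224 and 263 CPM in K87R, against 1236, 1277 and 1246 CPM in hy5 (log2 -2.36 ± 0.39, adjusted p = 0.000314, and -2.48 ± 0.39, adjusted p = 0.000169), the smallest adjusted p among the 34 genes in both. ATPC1 had 460.0, 540.1 and 491 CPM in K87Q and 508, 580.4 and 602 CPM in K87R, against 1369, 1367 and 1348 CPM in hy5 (log2 -1.45 ± 0.33 and -1.27 ± 0.33, adjusted p = 0.00496 and 0.00938). ATPG, which encodes a membrane subunit of the stator stalk, had 1516, 1312 and 1465 CPM in K87Q and 761, 899 and 948 CPM in K87R, against 2028, 2026 and 1930.0 CPM in hy5, and was not called (log2 -0.48 ± 0.53 and -1.20 ± 0.53). ATPG was closest to hy5 in K87Q, while in K87R ATPC1 and ATPG differed by less than their standard errors. The sizes of change of the 3 genes were not tested against each other.

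**Figure D4:**
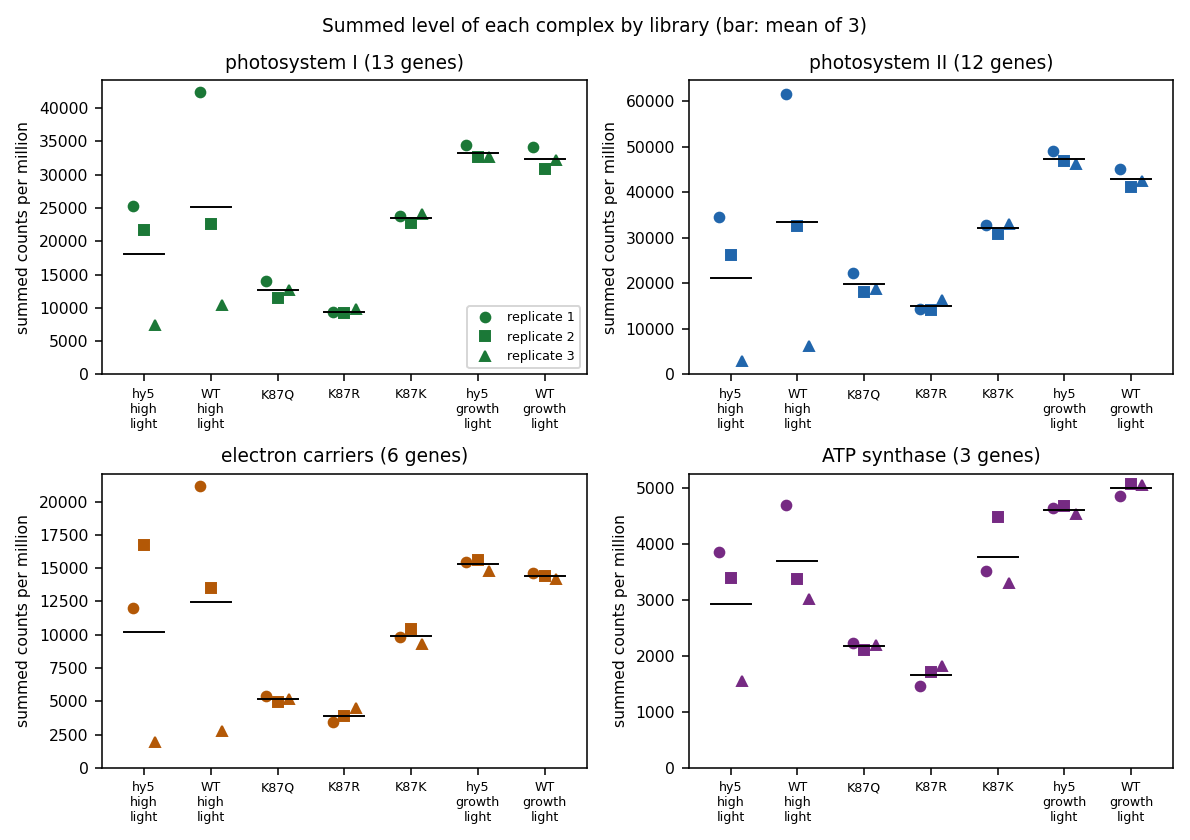
Summed CPM of the genes of each complex (y axis, from 0) in every library, by group (x axis), with symbols for replicates 1 to 3 and bars for means of 3. In all 4 panels K87Q and K87R lie below K87K, hy5 and WT of growth light, and high-light replicate 3 (triangles) lies below replicates 1 and 2.

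G-box sequences were searched for because members moved together and HY5 is known to bind them. In the 250 bases before the annotated start, from the RefSeq annotation of TAIR10.1, CACGTG (its own reverse complement) was present in 7 of 34 genes (20.6%), against 6.49% of 27443 protein-coding promoters. GATAAG, the I-box, was present on either strand in 9 genes (26.5%), against 12.3%, and CCAATC, a motif of GLK factors, on either strand in 5 (14.7%), against 10.2%. No matches overlapped one another in the windows printed here. The 30 bases around the G-box nearest the start are shown for the 7 genes, 5′ to 3′ on the gene's strand, with the G-box in capitals.
PSAE2: gatatgtgatcaCACGTGtcatatcacaag
PSAH2: gatgacaacccaattcgcCACGTGgcagaa
PSBQ1: ggacaaaaatgaCACGTGgttttatatgag
PSBQ2: gaatcaagaaacCACGTGtcaacatattag
PSBTN: caaaagatagaacatgaCACGTGgccacaa
PSB28: acacgcatgtgcCACGTGtgtttcatgcat
ATPD: atcaaacaactcCACGTGtcgattcctcac
These windows lie at chr2:8736659-8736688, plus strand (PSAE2), chr1:19454768-19454797, plus strand (PSAH2), chr4:11334285-11334314, plus strand (PSBQ1), chr4:2673303-2673332, minus strand (PSBQ2), chr3:7377227-7377256, minus strand (PSBTN), chr4:14149705-14149734, plus strand (PSB28), chr4:6100560-6100589, plus strand (ATPD). All 7 genes lay below hy5 in every library of both lines, as did all members but FNR2, and the growth-light fit called all 7 lower. They differed in size of change and in the calls of the fit of all libraries. PSBQ1, PSAH2 and ATPD were called lower in both lines, with log2 fold changes of -2.26, -2.31 and -2.36 in K87Q and -2.79, -2.51 and -2.48 in K87R, while PSAE2, PSBQ2, PSBTN and PSB28 were not called and ranged from -1.73 (PSB28) to -0.40 (PSAE2) in K87Q and from -2.36 (PSB28) to -0.43 (PSAE2) in K87R. The median was -1.73 with a G-box (7 genes) and -1.45 without (27 genes) in K87Q, and -2.36 and -1.78 in K87R, a description with no test.

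Whole windows are shown for 4 genes whose upstream 250 bases meet no other annotated gene. PSBQ2 has G-boxes, PSAP and PSB27 were called lower in both lines and have none, and FNR2 is the gene that lay above hy5. Capitals mark matches to any of the 3 motifs on either strand.
PSBQ2: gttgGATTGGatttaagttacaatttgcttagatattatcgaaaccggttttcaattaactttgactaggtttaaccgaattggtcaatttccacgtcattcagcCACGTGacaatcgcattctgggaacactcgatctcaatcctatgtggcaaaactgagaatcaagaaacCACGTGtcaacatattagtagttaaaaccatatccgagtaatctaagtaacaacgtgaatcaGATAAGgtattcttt
PSAP: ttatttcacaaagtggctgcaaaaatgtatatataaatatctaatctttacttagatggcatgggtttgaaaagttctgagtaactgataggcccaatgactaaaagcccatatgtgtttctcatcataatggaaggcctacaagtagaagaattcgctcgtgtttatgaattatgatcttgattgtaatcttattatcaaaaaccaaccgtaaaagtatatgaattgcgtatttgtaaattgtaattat
PSB27: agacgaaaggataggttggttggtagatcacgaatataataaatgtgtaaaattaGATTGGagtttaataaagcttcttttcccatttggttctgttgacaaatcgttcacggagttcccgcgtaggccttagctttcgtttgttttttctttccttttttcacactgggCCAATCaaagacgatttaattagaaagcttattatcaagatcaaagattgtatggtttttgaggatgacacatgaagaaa
FNR2: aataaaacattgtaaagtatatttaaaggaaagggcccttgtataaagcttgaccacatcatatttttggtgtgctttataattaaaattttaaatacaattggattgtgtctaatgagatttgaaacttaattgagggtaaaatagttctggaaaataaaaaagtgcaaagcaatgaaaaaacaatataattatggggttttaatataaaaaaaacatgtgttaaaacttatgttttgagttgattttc
The windows lie at chr4:2673244-2673493, minus strand (PSBQ2), chr2:19243098-19243347, plus strand (PSAP), chr1:898230-898479, plus strand (PSB27), chr1:6942375-6942624, plus strand (FNR2). Neither PSAP, whose log2 fold change in K87R was -2.74, nor FNR2, with 0.80, held any of the 3 motifs here. A match describes letters and is neither a binding site nor a cause, and no match concerns this window alone.

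The line with unaltered HY5, K87K, lay between the substituted lines and hy5 in the summed level of the 34 genes. Against hy5, 28 of the 34 genes were lower in every K87K library (20.8% of all genes were), and the median log2 fold change was -0.59 (0.00 over all genes). At a coding GC of 50 to 52% the median was -0.56 over members and -0.35 over expressed genes. At 52% and over it was -0.65 and -0.35. The test of edgeR called none of 34 and 0.84% of all genes (0.4% lower and 0.44% higher). No member lay above hy5 in every K87K library (20% of all genes did). At an unadjusted p under 0.05 there was 1 gene, and DESeq2 called 1, beside 3.25% of all genes. The largest difference was that of PSAP, with 1270.5, 882 and 985 CPM in K87K, against 2823, 2190.3 and 2296 CPM in hy5 (log2 -1.22 ± 0.43, adjusted p = 0.222). In the growth-light fit 28 genes were called lower (13.7% of all genes) and none higher (14.2%), from -1.22 (PSAP) to -0.25 (PSAF). PSAD1, PSAD2, PSBQ2, PSBY, FNR2 and ATPC1 were the 6 not called there. PSAD2 had 1209, 1451 and 1636 CPM in K87K and PSAD1 2680.4, 3273 and 3261 CPM, both overlapping hy5. Without TMM factors the medians were -0.27 over the 34 genes and 0.32 over all genes, and 7 genes had positive values in place of 2. PSAD1, PSAF, PSBQ2, PSBY and FNR2 were those whose sign turned (0.20, 0.07, 0.15, 0.04 and 0.19), beside PSAD2 and ATPC1, which were positive on both scales.

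Against WT, K87K was below in every library for 30 of 34 genes (20.4% of all genes), with a median of -0.52 (-0.02 over all genes). No member lay above WT in every library (19.1% of all genes). No member was called, beside 1.09% of all genes (0.479% lower and 0.613% higher), 2 had an unadjusted p under 0.05, and DESeq2 called 1, beside 4% of all genes. The growth-light fit called 29 lower (12.2% of all genes) and none higher (13.4%). PSAP was again lowest (-1.15 ± 0.43, adjusted p = 0.243).

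Set against K87K, 28 genes in K87Q and 31 in K87R lay below it in every library (26.2% of all genes in both), and FNR2 above it (26.9% and 28% of all genes). The medians were -0.89 in K87Q and -1.27 in K87R (0.04 and 0.06 over all genes). The test called 7 lower and none higher in K87Q, beside 15.3% of all genes, 8.7% lower and 6.62% higher. In K87R it called 10 lower and 1 higher, beside 15.1% of all genes, 8.37% lower and 6.71% higher. The genes called in K87Q were PSAD1, PSAD2, PSAH2, PSAN, PSBQ1, ATPC1 and ATPD. K87R added PSAP, PSB27 and FD2 to these genes, and FNR2 was the one higher. PSAD2 differed most in both (-2.62 ± 0.42, adjusted p = 0.000262, in K87Q and -2.59 ± 0.42, adjusted p = 0.000292, in K87R). ATPD had 790.3, 1244 and 851 CPM in K87K, PSAN 1760.0, 1858 and 1561, PSAH2 869, 887 and 742, PSBQ1 2478, 2213 and 2285 and ATPC1 1272, 1626 and 1214 CPM, all above the K87Q and K87R values given before. The K87R count fell to 6 without any 1 of the K87K libraries, to 5 without K87R replicate 1, 4 without K87R replicate 2 and 6 without K87R replicate 3. In these fits 8.45% to 9.73% of all genes were called, and FNR2 was in none of the member counts. The growth-light fit called 29 lower and 1 higher in K87Q (25.8% and 25.2% of all genes) and 31 lower and 1 higher in K87R (25.4% and 25% of all genes). The comparisons over K87K and over hy5 use the same K87Q and K87R libraries.

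K87Q and K87R were not told apart by the test of all libraries, which called no member and 0% of all genes. None of the 34 had an unadjusted p under 0.05, and DESeq2 called none of them. The median log2 difference was 0.33, beside 0.00 over all genes, and 19 genes lay above K87R in every K87Q library (19.5% of all genes), 2 below (17.7%). Without TMM factors the medians were 0.03 and -0.29, and 18 genes in place of 28 had positive values. The growth-light fit called 20 members higher and 2 lower in K87Q, beside 15.6% and 11.7% of all genes. PSAL, a subunit at the antenna docking site, had 4136, 2796 and 3371 CPM in K87Q and 1977, 1918 and 1974 CPM in K87R (0.81 ± 0.11, adjusted p = 4.37e-06 in that fit), while PSAN went the other way (-0.49 ± 0.12, adjusted p = 0.00291). The lines also differ in the hy5 allele they carry.

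In growth light the test did not tell hy5 from WT for any of these genes. For hy5 over WT the median log2 fold change was 0.07 (-0.01 over all genes), which without the TMM factors turned to -0.12 (-0.21 over all genes). With TMM the values ran from -0.41 (FNR2) to 0.37 (PSBR), and edgeR called none of 34 and 0.217% of all genes (0.104% lower and 0.114% higher). None had an unadjusted p under 0.05, and DESeq2 called none. Of the 34, 12 lay above WT in every hy5 library (22% of all genes) and 6 below (22.2%). FNR2 had 206, 198 and 193 CPM in hy5, against 294, 248 and 251 CPM in WT, and ATPC1 1369, 1367 and 1348 CPM in hy5, against 1694, 1837 and 1768 CPM in WT. The growth-light fit called FNR2, ATPC1 and PSBQ2 lower and PSBR higher, where 11.3% and 12.2% of all genes were called.

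With all libraries, few members passed the test of high light over growth light. In hy5, 20 genes were lower than in growth light in every library (26.2% of all genes) and 1 higher (20.6%), and the median was -0.87 (0.00 over all genes). At a coding GC of 50 to 52% the hy5 median was -1.03 over members and -0.89 over expressed genes, and in WT -0.76 and -0.21. At 52% and over it was -1.26 and -0.98 in hy5, and -0.52 and -0.11 in WT. The test called 5 lower (17.7% of all genes) and 1 higher (18.9%), where it called 36.5% of all genes in either direction. These were PSAE1 (-1.66 ± 0.48, adjusted p = 0.011), PSAH2 (-1.46 ± 0.45, adjusted p = 0.0148), PSB27 (-1.40 ± 0.52, adjusted p = 0.0424), ATPD (-1.34 ± 0.37, adjusted p = 0.00851) and PSAD2 (-1.07 ± 0.40, adjusted p = 0.041), with FNR2 higher (1.48 ± 0.31, adjusted p = 0.00115). In WT, 7 genes were lower in every library (22.5% of all genes) and 1 higher (18.8%). There 24.8% of all genes were called. Among the 34, 1 was called higher (14% of all genes), FNR2 (0.92 ± 0.31, adjusted p = 0.0362), and 1 lower (10.8%), ATPD (-1.04 ± 0.37, adjusted p = 0.0452), with a median of -0.46 (0.03 over all genes). Leaving out replicate 1 of WT in high light moved the WT median to -1.02, and leaving out its replicate 3 to -0.15, while the hy5 median was -0.46 without hy5 high-light replicate 3. Fitted on the libraries compared alone, none of the 5 lower calls in hy5 was kept and FNR2 alone was higher (6.81% of all genes lower and 10.5% higher), and in WT no member was called (6.47% and 9.3%). The count in hy5 was 10 without hy5 high-light replicate 1 (40.5% of all genes) and 3 without replicate 2 (36.3%). In WT it was 3 without high-light replicate 1 (22.1% of all genes), and 1 without high-light replicate 2 (20.6%) or 3 (30.7%). It was 0 without any 1 of the WT growth-light libraries (16.8% to 17%).

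FNR2 had 469, 650.1 and 552 CPM in hy5 in high light, against 206, 198 and 193 CPM in hy5 in growth light, and 317, 387 and 793 CPM in WT in high light, against 294, 248 and 251 CPM in WT in growth light. High-light libraries were above those of growth light in both genotypes. ATPD had 813, 397 and 276 CPM in hy5 in high light, against 1236, 1277 and 1246 CPM in growth light, and 973, 657 and 589 CPM in WT in high light, against 1451, 1578 and 1546 CPM in growth light. It was lower in every high-light library than in any growth-light library of its genotype. PSAE1 had 728, 221 and 116 CPM in hy5 in high light, against 1085, 1168 and 1111 CPM in growth light, with replicate 3 lowest.

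Without both high-light replicate 3 libraries, the medians were -0.46 in hy5 and -0.15 in WT (-0.09 and -0.12 over all genes). In hy5, 15 genes were then called lower (24.5% of all genes) and FNR2 higher (22.9%). In WT, 3 were lower (23.7%) and 5 higher (22.8%). The lower ones in WT were PSAD2 (-1.23 ± 0.29), ATPD (-0.90 ± 0.24) and PETE1 (-0.53 ± 0.20), and the higher ones PSBR (1.21 ± 0.23), PSB28 (0.99 ± 0.24), PSAE2 (0.52 ± 0.18), PETC (0.49 ± 0.16) and FNR2 (0.41 ± 0.17). PSBR had 20440.0, 9413 and 97.5 CPM in WT in high light, against 7310.4, 5707 and 6394 CPM in growth light, so that high-light replicates 1 and 2 were above and replicate 3 far below all growth-light libraries. In hy5 the lowest were PSAD2 (-1.36 ± 0.29), PSBX (-1.35 ± 0.30) and PSAE1 (-1.23 ± 0.32).

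Whether light acted differently in hy5 than in WT was tested by the difference of the light effects. With all libraries no member was called (0.089% of all genes, 0.0247% higher and 0.0642% lower in hy5), none had an unadjusted p under 0.05, DESeq2 called none, and the median difference was -0.51 (-0.03 over all genes). Leaving out WT high-light replicate 1 alone turned that median to 0.05, and leaving out hy5 high-light replicate 3 alone gave -0.06. Without WT high-light replicate 3 alone, 1 member was called (16.4% of all genes), and without hy5 high-light replicate 1 alone, 2 (5.67%). Without high-light replicate 3 libraries, 4 genes had a lower light effect in hy5 (13.6% of all genes) and 1 a higher (11.6%). They were PSAG (-1.38 ± 0.41, adjusted p = 0.0193), PSBR (-1.28 ± 0.33, adjusted p = 0.00678), PSAL (-1.18 ± 0.33, adjusted p = 0.0105) and PSB28 (-1.09 ± 0.34, adjusted p = 0.0211), and FNR2 (1.09 ± 0.24, adjusted p = 0.00201). With the replicate number as a block in that fit, a choice made after seeing the data, PSAH1, PSBO1, PSBW, PSBX and PSBTN were called lower too, 9 in all (13.5% of all genes), and FNR2 higher (11.1%). The summed CPM of the 34 genes was 75669, 67932 and 13894 in hy5 and 129890.0, 71951 and 22487 in WT in high light, so that WT replicates 1 and 2 themselves were far apart.

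Within high light, hy5 over WT had a median of -0.46 (-0.04 over all genes), with no member called (3.14% of all genes, 2.3% lower and 0.84% higher), 3 at an unadjusted p under 0.05 and 1 called by DESeq2 (8.5% of all genes). No member separated the genotypes in every library (4.96% of all genes lay below and 2.69% above). The median was 0.16 without WT high-light replicate 1, -0.53 without WT replicate 2 and -0.83 without WT replicate 3, and -0.84, -0.68 and -0.06 without hy5 high-light replicate 1, 2 and 3 in turn, so its sign and size depend on single libraries. The count was 4 without hy5 high-light replicate 1 (11.7% of all genes). It was 1 without replicate 3 of WT alone (23% of all genes) or of hy5 alone (6.4%). Without both replicate 3 libraries, PSAE1, PSAG, PSAL, PSBO1, PSBQ2, PSBR, PSBW, PSBX, PSB28 and PETE1 were called lower (16.4% of all genes) and FNR2 higher (13.6%), with PSAG furthest (-1.21 ± 0.32, adjusted p = 0.00753). With the replicate number as a block in that fit 10 were again lower (16.3% of all genes), with PSAH1 called and PETE1 not, and FNR2 higher (13.1%).

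Pairs of genes encode 7 of the subunits, and in 28 of 42 comparisons between groups the ratio of the copies did not overlap. The share over other pairs of genes was not computed, and the 42 comparisons share libraries. Those with high light include both replicate 3 libraries. Among single genes such separation was common. In K87Q 31.2% of all genes lay above hy5 in every library and 27.8% below, and in WT 18.8% lay above in high light and 22.5% below. Coding sequences of the pairs were 75.0% (PETE) to 88.0% (PSAD) identical, with longest identical runs of 17 (PETE and FNR) to 35 bases (PSAD). Reads longer than these runs would span a difference within coding sequence. The degree to which reads were split between copies was not measured here. Per kilobase, PSBO1 over PSBO2 was 8.33 ± 0.207 in K87Q and 7.38 ± 0.346 in K87R, against 4.11 ± 0.419 in K87K, 3.58 ± 0.047 in hy5 and 3.86 ± 0.150 in WT (SD, n = 3 each). PSAD1 over PSAD2 was 4.30 ± 0.416 in K87Q and 3.44 ± 0.124 in K87R, against 1.82 ± 0.120 in K87K, 2.35 ± 0.137 in hy5 and 2.23 ± 0.0964 in WT. Both ratios were higher in every library of the substituted lines than in any other growth-light library.

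FNR1 over FNR2 moved in the other direction, with 1.44 ± 0.0537 in K87Q and 1.34 ± 0.119 in K87R, against 3.04 ± 0.325 in K87K, 3.95 ± 0.0499 in hy5 and 3.40 ± 0.249 in WT. PSBQ1 over PSBQ2 was 1.21 ± 0.171 in K87Q and 0.757 ± 0.0288 in K87R, against 1.95 ± 0.197 in K87K, 2.70 ± 0.104 in hy5 and 1.83 ± 0.0582 in WT. PSAH1 over PSAH2 ran from 1.03 to 1.28 in K87Q and 0.722 to 0.839 in K87R, against 0.363 to 0.504 in K87K, 0.458 to 0.560 in hy5 and 0.402 to 0.445 in WT. PSAE1 over PSAE2 ran from 0.698 to 0.991 in K87Q and 0.603 to 0.948 in K87R, against 1.23 to 1.72 in K87K, 1.42 to 1.87 in hy5 and 1.74 to 2.58 in WT. PETE1 stayed a small part of plastocyanin transcript, at 0.0431 ± 0.00342 of PETE2 in K87Q, 0.0548 ± 0.00459 in K87R, 0.0381 ± 0.00717 in K87K, 0.0494 ± 0.00276 in hy5 and 0.0549 ± 0.00141 in WT. Over 42 comparisons of a ratio between groups of 3, a two-sided exact permutation test cannot go below p = 0.1, which 28 reached (adjusted p = 0.15), so none passed 0.05.

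**Figure D5:**
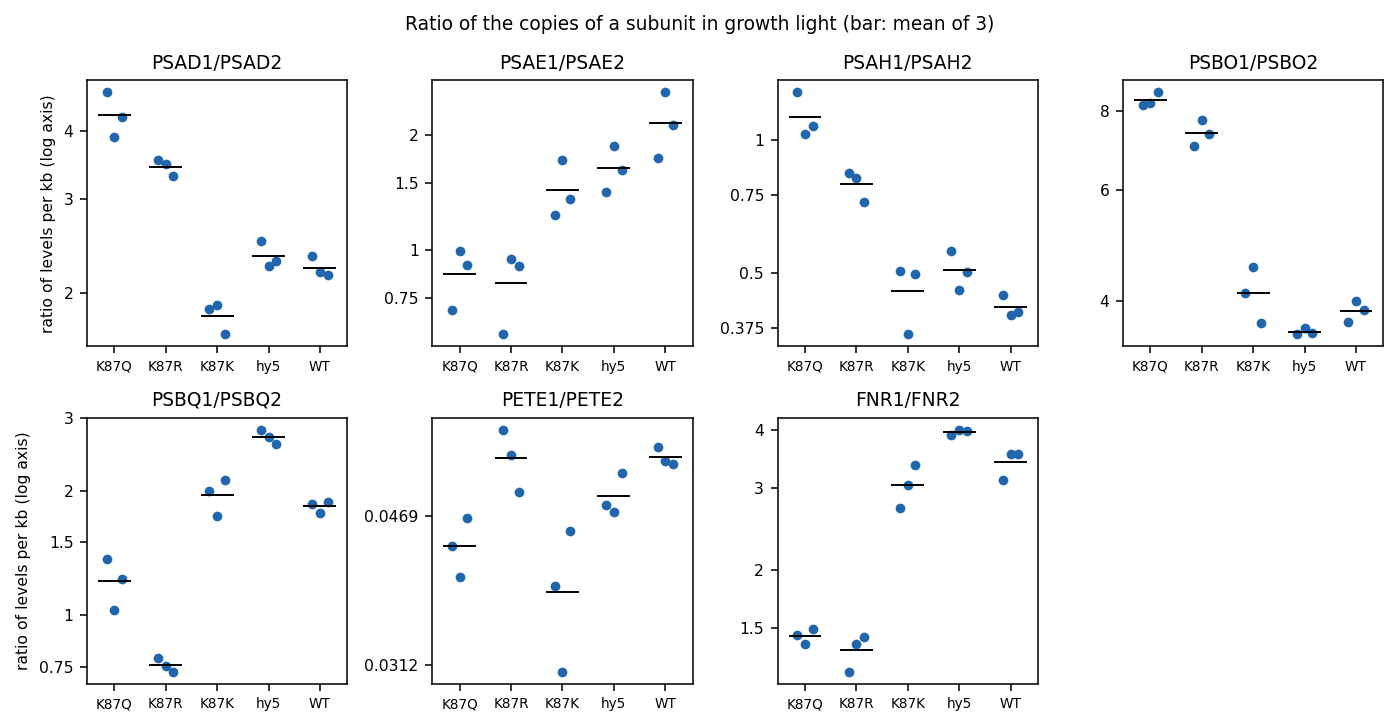
Ratio of the levels per kb of the copies of each of the 7 subunits (y axes, log scale, each panel its own) in the 5 growth-light groups (x axes), with points for libraries and bars for means of 3. PSBO1/PSBO2 and PSAD1/PSAD2 are higher, and FNR1/FNR2 and PSBQ1/PSBQ2 lower, in K87Q and K87R than in hy5.

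Some members overlap a neighbour on the other strand, by 788 bases for PSAH1, 479 for PSAG, 436 for PSAE1, 191 for FNR1 and 174 for PSAH2, and whether counting used the strand is not given in the sources used here, so reads of the neighbours cannot be told apart from theirs.

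Other genes of the electron transport system were described from lists chosen by function. With TMM factors, the shares of all genes called over hy5 were 9.38% lower and 7.35% higher in K87Q, and 11.3% lower and 11.1% higher in K87R. Of 16 tested genes of the NDH complex, which carries cyclic electron flow around photosystem I, 11 were called lower in K87Q and 11 in K87R over hy5. None was higher, and the medians were -1.27 and -1.02. Without TMM factors 4 NDH genes were lower in K87Q (median -0.61), and 2 lower and 1 higher in K87R (median -0.06). On that scale the medians over all genes were 0.76 in K87Q and 1.05 in K87R, and the test called 4.25% of all genes lower and 21.5% higher in K87Q, and 4.01% lower and 37.7% higher in K87R. PNSB1 and PNSB2, subunits of its subcomplex B, had -2.45 ± 0.26 and -1.71 ± 0.24 in K87Q (adjusted p = 3.14e-06 and 8.09e-05) and -2.17 ± 0.25 and -2.19 ± 0.25 in K87R (adjusted p = 7.98e-06 and 6.15e-06). Of 19 genes of cyclic flow and minor carriers, 6 were lower and 1 higher in K87Q and 8 lower and 2 higher in K87R, among them PGR5, a protein of ferredoxin-dependent cyclic flow (-1.43 ± 0.33 in K87Q, adjusted p = 0.00496, and -1.81 ± 0.33 in K87R, adjusted p = 0.00065). Without TMM factors these counts, read against the shares of all genes on that scale, were 1 lower and 3 higher in K87Q, and 4 lower and 3 higher in K87R. Of 18 assembly factors, 4 were lower in each line and none higher, while without TMM factors 2 were lower in each and 2 higher in K87R. They included HCF244 and HCF173, which are needed for synthesis of the D1 protein (-2.46 ± 0.27 and -1.90 ± 0.38 in K87Q and -2.78 ± 0.28 and -2.34 ± 0.39 in K87R, adjusted p = 6.44e-06, 0.00192, 1.79e-06 and 0.000295). The median over the cyclic and minor carrier list was -0.88 in K87Q and -0.81 in K87R, or -0.22 and 0.15 without TMM factors, and over the assembly list -0.55 and -0.47, or 0.11 and 0.49 without them.

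Among 14 regulators, HY5 itself was higher in both lines over hy5 (7.35% of all genes in K87Q and 11.1% in K87R). Lower in each were 3 genes (9.38% and 11.3% of all genes). Without TMM factors 2 were lower in each (4.25% of all genes in K87Q and 4.01% in K87R) and 2 (K87Q) and 5 (K87R) higher (21.5% and 37.7% of all genes). SIG5, a light-responsive sigma factor of plastid transcription, had -3.38 ± 0.39 in K87Q (adjusted p = 9.55e-06) and -2.70 ± 0.38 in K87R (adjusted p = 5.82e-05), and HYH, the homologue of HY5, -1.71 ± 0.34 (adjusted p = 0.00176) and -2.31 ± 0.36 (adjusted p = 0.000145). SIG5 had 88.7, 125 and 146 CPM in hy5 in high light, against 25.1, 25.0 and 26.6 CPM in hy5 in growth light, and 103, 73.4 and 278 CPM in WT in high light, against 54.2, 54.6 and 52.2 CPM in WT in growth light, a rise in both (adjusted p = 0.000109 and 0.00416). Without both high-light replicate 3 libraries its log2 change was 2.07 ± 0.20 in hy5 and 0.72 ± 0.20 in WT. The 32 plastid-encoded subunits had medians of -3.81 in K87Q and -2.26 in K87R over hy5, with 12 and 9 called lower (9.38% and 11.3% of all genes). Without TMM factors 4 and 3 were lower (4.25% and 4.01% of all genes). But these plastid transcripts varied widely within groups in poly(A)-selected RNA. Their summed level was 854, 532 and 670.1 CPM in K87Q and 6719, 331 and 407 CPM in K87R, against 3742, 6049 and 29994 CPM in K87K, 5955, 5507 and 39042 CPM in hy5 and 6688, 7692 and 13348 CPM in WT. K87R replicate 1 overlapped hy5.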

How the data were processed

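Whole-seedling poly(A) RNA-seq libraries (21, in 7 groups of 3) were read from 1 table of raw counts per gene that the authors deposited, together with gene lengths. The build was TAIR10, and the tools named are featureCounts 1.5.0-p3, DESeq2 1.20.0, HISAT2 2.0.5, fastp and StringTie 1.3.3b, per the submitters' processing notes. The strand setting of the counting is not given in the sources used here. The table held 32833 genes, and library totals ran from 7283290 to 22101539 counts, which limits the precision of low genes most in K87R replicate 1. Columns were matched to samples by name, with 0 left unmatched.

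Genes passing edgeR's filterByExpr (minimum count 10) numbered 20234. A quasi-likelihood model (edgeR 4.0.16 in R 4.3.3, TMM factors, robust, 7 group means) was fitted to all 21 libraries, 12 contrasts were tested, and p-values were adjusted by the Benjamini-Hochberg method over all genes of a contrast. A gene was called at an adjusted p under 0.05. Values after ± are the standard errors of the log2 fold change unless an SD is named. All levels are CPM scaled with TMM factors, and levels per kb use the authors' gene length. The model was tested on simulated data. Copy ratios were compared with two-sided exact permutation tests over libraries. Promoters and coding sequences were read from the RefSeq annotation of TAIR10.1, where all 34 genes had the start and end of the deposited table.

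Alternatives were DESeq2 1.42.0, library size without TMM factors, organelle genes left out, no low-count filter, the libraries compared alone, the replicate number as a block, each library left out in turn, and both high-light replicate 3 libraries left out. A fit of the 15 growth-light libraries, and the block together with the replicate 3 libraries left out, were chosen after seeing the data. Replicate numbers were checked for pairing by correlating deviations from group means. All values come from fits without a block unless one is named. The correlations were 0.381, 0.159 and 0.483 between hy5 and WT in high light, which the rule used here counts as paired numbers, and lay between -0.126 and 0.134 in the other comparisons.

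The members and lists were chosen with earlier results of these data known. Values per library are given for called genes (at most 8 of a contrast, by size of change), for the most and least abundant gene per length and for the 7 pairs of copies; other lists have at most 4 named genes. Values of PSBO2, PSBX, PETE1, PSAL, ATPG and PSAE2 beyond that were added after seeing them.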

Additional observations from a re-analysis of the deposited data

How the results depend on the processing

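The number of called members was compared with that of the fit of all 21 libraries for the 12 contrasts, and counts not given here lay within 1.5 times of it. DESeq2 called 4 in WT in high over growth light (2 in edgeR), 24 in K87R over hy5 (14 in edgeR), and 1 each in hy5 over WT in high light, K87K over hy5 and K87K over WT. Without TMM factors 9 were called in K87R over hy5 and 7 in K87R over K87K (11 with them), and that scale moved the median of all genes by over 0.1 in each contrast except light in WT, for example to 0.25 for light in hy5. Without the low-count filter WT in high light had 0. The libraries compared alone gave 0 for light in WT (15.8% of all genes), 1 for light in hy5 (17.3%; 6 in the fit of all libraries), 17 in hy5 over WT in growth light (37.9%), 27 in K87K over hy5 (30.9%), 34 in K87Q over hy5 (55.1%), 34 in K87R over hy5 (61.2%), 30 in K87Q over K87K (46.9%), 32 in K87R over K87K (47.9%), 17 in K87Q over K87R (23.6%) and 28 in K87K over WT (27.9%). The growth-light libraries gave 4, 28, 34, 34, 30, 32, 22 and 29 in these contrasts of growth light, in the same order (23.5% to 57.4% of all genes). With the replicate number as a block, light in WT gave 0, K87R over K87K 10, and the other counts did not change, including hy5 over WT in high light, where the numbers pair the libraries (476 genes called in all, 636 without the block). Leaving out both high-light replicate 3 libraries gave 8 for light in WT, 16 for light in hy5, 5 for the difference of the light effects and 11 for hy5 over WT in high light (9, 18, 10 and 11 with the replicate block added), and PSAE2 in WT turned to 0.52 (adjusted p = 0.0182), or 0.54 with the block (adjusted p = 0.00696), on the log2 scale, from -0.01. Leaving out 1 library at a time gave 0 to 3 for light in WT (16.8% to 30.7% of all genes) and 3 to 10 for light in hy5 (27.6% to 40.5%). It gave 0 to 2 for the difference of the light effects (0.00964% to 16.4%) and 0 to 4 for hy5 over WT in high light (1.14% to 23%). Over hy5 it gave 8 to 10 in K87Q (9.65% to 10.7%) and 10 in K87R (13.9% to 14.9%). Over K87K it gave 5 to 6 in K87Q (9.08% to 10.4%) and 4 to 6 in K87R (8.45% to 9.73%). Leaving out organelle genes changed no count. The causes were not tested beyond the spread of the high-light replicate 3 libraries, and the part of depth in the low genes PSB28 and PETE1 was not tested.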
